A study of Homo sapiens with 24 samples.

Results

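The response to the synthetic androgen R1881 was examined in LNCaP cells transfected with an expression construct for WDR77-peptide 3 (P3). The comparison set the 3 P3_R1881 libraries (sample numbers 6, 20 and 34) against the 3 P3_vehicle libraries (5, 19 and 33), which are 6 of the 24 libraries in the series. LNCaP is a prostate adenocarcinoma cell line that depends on androgen receptor signalling and makes prostate-specific antigen. P3_R1881 cells received 5 nM R1881 and P3_vehicle cells received ethanol, each for 48 h from the second day after transfection, and all cells, controls included, were kept in androgen-deprived medium. Cells given the empty vector (EV) under the same 2 conditions, EV_R1881 and EV_vehicle with 3 libraries each, are used to show where the P3 response differs. They were fitted together with the P3 libraries and share their filter, scaling and estimate of the spread. A further set, LNCaP cells with a non-targeting siRNA (siCtrl_R1881 and siCtrl_vehicle, 3 libraries each), served to choose hormone-responsive genes in libraries of neither arm. The remaining libraries, cells with WDR77 siRNA under the same 2 conditions, shared the fit of the siCtrl libraries and entered the fits of all 24 libraries. The transfection was transient, the share of cells that took up the construct is not given in the sources used here, and each library is RNA of a whole well, so fewer cells of a type and less RNA per cell cannot be told apart. The labels describe biological triplicates.

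The androgen receptor is a steroid-activated transcription factor. Bound to hormone it enters the nucleus, binds DNA as a dimer at paired half-sites, often beside FOXA1, and recruits coregulators that raise or lower transcription. In prostate epithelium its best known targets are secreted kallikreins, but it also drives lipid synthesis and the secretory pathway. WDR77, also called MEP50, is the partner of the arginine methyltransferase PRMT5 in the methylosome and a coregulator of the receptor. The title of the series names disruption of the contact between the receptor and WDR77 as its subject, so the comparison asks how these cells respond to androgen when the peptide is present.

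The 6 libraries held 17115227 to 21720438 counts each, and mitochondrially encoded genes took 5.15 to 5.63% of them. P3_vehicle library 5 stood apart from its group, with counts on 29094 features against 26538 to 27440 in the other 5 libraries, so the counts that lead each section were also taken without it. After a filter on low counts 17772 genes were tested with edgeR's quasi-likelihood test, and a gene is called higher or lower at a Benjamini-Hochberg adjusted p under 0.05. Levels are given as CPM, counts scaled to a common library size after TMM normalization, and fold changes are P3_R1881 over P3_vehicle unless another pair is named.

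R1881 changed 3726 genes in P3 cells, 21% of those tested. Of these, 2312 (13.0%) rose and 1414 (7.96%) fell. These shares of all tested genes are the background for the list counts below. They are not matched for abundance, and among genes between 100 and 1000 CPM 34.3% rose and 9.99% fell. The lists and their members were chosen with earlier results of these data known. The list counts therefore describe the members and are not independent support. The rises reached much further than the falls. There were 338 genes higher by at least 2-fold, 121 by at least 4-fold and 47 by at least 8-fold, whereas 97 genes were lower by at least 2-fold and 10 by at least 4-fold. The median rise among called genes was 0.38 on the log2 scale and the median fall was -0.37, so the typical called change was below 1.5-fold in either direction. Between the 2 groups of 3 libraries 6080 genes did not overlap, 34.2% of those tested, and 3591 of the 3726 called genes (96.4%) were among them. Without P3_vehicle library 5, 3214 genes were called. Genes that rose held 29 to 29.8% of all counts in P3_R1881 libraries and 21.9 to 22.3% in P3_vehicle libraries, and those that fell held 8.86 to 8.93% in P3_R1881 libraries and 11.5 to 11.8% in P3_vehicle libraries.

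The 4 standard androgen receptor targets all rose. KLK3, which encodes prostate-specific antigen (chr19:50854915-50860764, plus strand, GRCh38), stood at 4382, 4229 and 4390 CPM in P3_R1881 libraries and at 1855, 1978 and 1938 CPM in P3_vehicle libraries. The groups were far apart, with a log2 fold change of 1.17 ± 0.048 (SE, edgeR adjusted p = 6.28e-23). Throughout, SE stands for the absolute log2 fold change divided by the square root of the test's F statistic. It was not taken from the model and is only a rough guide for sparse genes. KLK2, the neighbouring kallikrein that activates prostate-specific antigen (chr19:50861568-50880567), had 499.8, 475.1 and 482.2 CPM in P3_R1881 libraries, against 218.2, 207.5 and 223.4 CPM in P3_vehicle libraries. Its log2 fold change, 1.17 ± 0.053, was the same as that of KLK3. TMPRSS2, a membrane serine protease (chr21:41464551-41531116, minus strand), rose to 1653, 1556 and 1581 CPM in P3_R1881 libraries, against 508.4, 523.2 and 529.5 CPM in P3_vehicle libraries, a log2 fold change of 1.62 ± 0.047. FKBP5, a co-chaperone of HSP90 that acts on steroid receptors (chr6:35573585-35728583, minus strand), gave the largest change of the 4. It stood at 1071, 1018 and 1006 CPM in P3_R1881 libraries and at 86.4, 94.0 and 87.2 CPM in P3_vehicle libraries, 11.6-fold higher. In EV cells the log2 fold changes of the same genes were 2.37 for KLK3, 3.19 for KLK2, 3.15 for TMPRSS2 and 5.07 for FKBP5, and each difference between the arms passed the test. In a fit of all 24 libraries the difference of KLK3 kept its size (-1.21) and did not pass (adjusted p = 0.0719). Mean levels without hormone were 1924 CPM in P3 against 1326 CPM in EV cells for KLK3 and 216 against 85.8 CPM for KLK2. For TMPRSS2 they were 520 against 331 CPM and for FKBP5 89.2 against 73.7 CPM. With R1881 the means were 4333 CPM in P3 against 6865 CPM in EV cells for KLK3 and 486 against 785 CPM for KLK2. For TMPRSS2 they were then 1597 against 2932 CPM and for FKBP5 1032 against 2481 CPM. So all 4 stood higher without and lower with hormone in P3 cells.

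**Figure D1:**
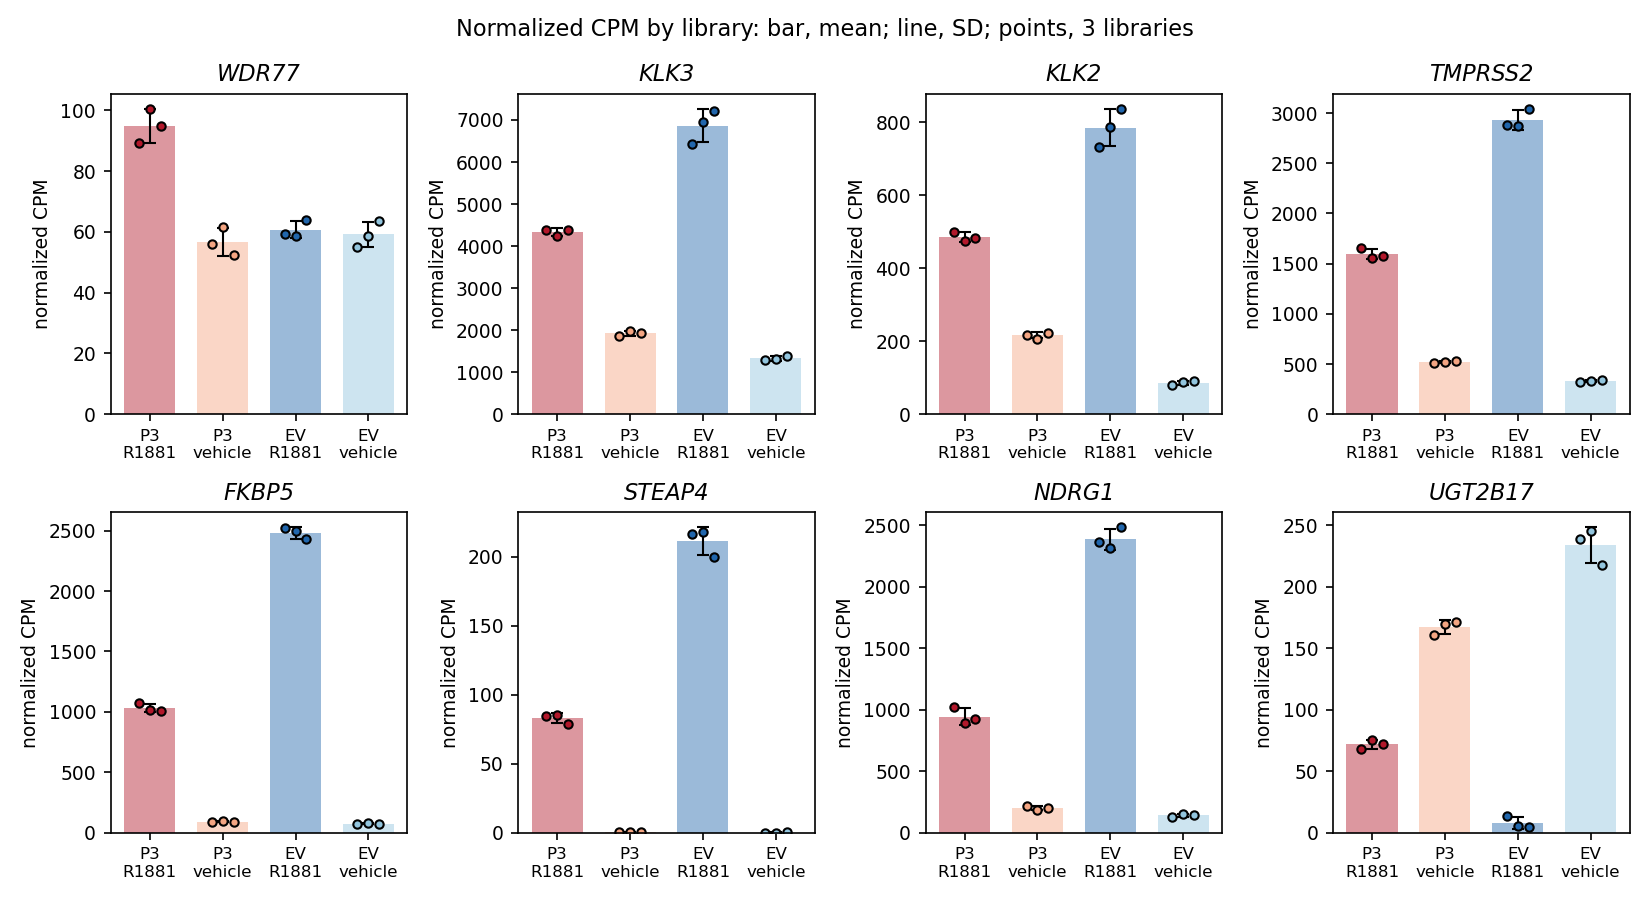
Normalized CPM (linear axes from 0) of 8 genes in P3_R1881, P3_vehicle, EV_R1881 and EV_vehicle cells. Bars are means, lines SD and points the 3 libraries of each group. KLK3, KLK2, TMPRSS2, FKBP5, STEAP4 and NDRG1 are higher with R1881 in both arms and reach lower levels in P3_R1881 than in EV_R1881 cells, UGT2B17 is lower with R1881 in both arms, and WDR77 is higher in P3_R1881 cells alone. Mean levels of KLK3, KLK2, TMPRSS2 and FKBP5 are higher in P3_vehicle than in EV_vehicle cells.

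WDR77 itself behaved otherwise (chr1:111439890-111449376, minus strand). It was at 89.3, 100.5 and 94.7 CPM in P3_R1881 libraries and at 56.2, 61.6 and 52.3 CPM in P3_vehicle libraries, with no overlap and a log2 fold change of 0.74 ± 0.067 (edgeR adjusted p = 5.36e-12). In EV cells it was at 59.4, 58.8 and 64.0 CPM with R1881 and at 55.1, 58.8 and 63.6 CPM with vehicle, and it was not called there (log2 fold change 0.04). The difference between the arms was 0.71 (adjusted p = 1.83e-07). A gene-level count holds reads of a construct's insert and of the cell's own transcript together, and the insert's sequence is not given in the sources used here. WDR77 shares exon sequence with AL390195.1 on its own strand, which makes its count uncertain whatever the strand setting. Its exons also overlap the antisense gene ATP5PB, a subunit of ATP synthase, and the strand setting of the counting is not given. ATP5PB stood at 224.7, 234.2 and 233.8 CPM in P3_R1881 libraries against 207.8, 244.7 and 219.6 CPM in P3_vehicle libraries (log2 fold change 0.04, not called).

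Promoter sequence was looked up for genes of the response in the RefSeq promoter table (GRCh38.p14, from 250 bases before to 50 after the start), which held 11361 of the tested genes. Each promoter was searched on both strands for the receptor half-site AGAACA, for a pair of such half-sites as an inverted repeat with a spacer of 3 bases (1 half-site exact, the other with at least 4 of 6 letters), which contains a half-site and so overlaps the first motif, and for GTAAACA, the core of forkhead factors. The half-site was present in 25 of 211 promoters of genes higher by at least 2-fold (11.8%), in 9 of 45 of genes lower by at least 2-fold and in 9.23% of all 11361. The pair was present in 3 of the 211 (1.42%) and in 0.264% of all. GTAAACA was present in 2.37% of the 211, in 4.44% of the 45 and in 2.37% of all. The 3 promoters with a pair are shown because their genes are among those that rose by at least 2-fold, namely KLK3 (chr19:50854665-50854964, plus strand), LINC00844 (chr10:58999268-58999567, plus strand) and PCSEAT (chr21:41580225-41580524, plus strand), the last 2 being long noncoding RNAs. Capitals mark the pair, and in PCSEAT also GTAAACA, read there on the other strand.
KLK3: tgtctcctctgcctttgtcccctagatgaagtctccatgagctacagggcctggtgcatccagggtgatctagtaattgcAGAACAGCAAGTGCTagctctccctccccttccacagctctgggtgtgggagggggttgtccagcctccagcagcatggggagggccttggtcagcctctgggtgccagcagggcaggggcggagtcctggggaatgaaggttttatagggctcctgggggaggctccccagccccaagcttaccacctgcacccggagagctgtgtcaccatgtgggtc
LINC00844: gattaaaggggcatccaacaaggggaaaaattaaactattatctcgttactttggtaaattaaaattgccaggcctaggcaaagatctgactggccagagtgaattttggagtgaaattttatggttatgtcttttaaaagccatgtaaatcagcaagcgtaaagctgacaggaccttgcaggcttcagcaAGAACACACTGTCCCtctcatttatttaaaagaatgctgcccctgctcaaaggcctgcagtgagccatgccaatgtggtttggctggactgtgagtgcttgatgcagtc
PCSEAT: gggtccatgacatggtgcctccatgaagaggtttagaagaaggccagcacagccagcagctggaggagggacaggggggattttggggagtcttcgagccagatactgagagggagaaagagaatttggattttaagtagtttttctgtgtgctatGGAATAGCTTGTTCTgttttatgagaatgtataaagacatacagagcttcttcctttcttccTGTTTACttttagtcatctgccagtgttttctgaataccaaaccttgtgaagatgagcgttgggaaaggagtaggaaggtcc
The pair begins at position -170 from the start in KLK3, at -59 in LINC00844 and at -94 in PCSEAT. A match describes these letters only.

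PCSEAT, which lies near TMPRSS2, had 10.2, 10.9 and 12 CPM in P3_R1881 libraries, against 2.05, 1.83 and 1.27 CPM in P3_vehicle libraries, a log2 fold change of 2.68 ± 0.17, and 5.28 in EV cells. LINC00844 was sparse, at 0.689, 1.06 and 1.29 CPM in P3_R1881 libraries and at 0, 0.305 and 0.218 CPM in P3_vehicle libraries, with a log2 fold change of 2.56 ± 0.57 that did not differ detectably from the 2.97 of EV cells (adjusted p = 0.792). The 3 genes were picked for rises of at least 2-fold, so their rises (log2 1.17 to 2.68) say nothing about the pair. Of the 30 promoters with the pair among all tested genes, 8 belonged to genes higher and 3 to genes lower in P3 cells. That is 0.44% of the promoters of genes that rose, 0.28% of those that fell and 0.264% of all.

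The largest rises were in genes nearly silent without hormone. ORM1, which encodes the plasma protein alpha-1-acid glycoprotein, had 11.1, 12.9 and 13.2 CPM in P3_R1881 libraries and no count in any P3_vehicle library, which against a floor of 3 counts over the group is at least 275-fold higher. ORM2, its near-identical neighbour whose reads the counting may have split with ORM1, had 9.47, 9.76 and 10.9 CPM in P3_R1881 libraries, against 0, 0.152 and 0.0437 CPM in P3_vehicle libraries. Both are best known as acute-phase genes of the liver. STEAP4, a metalloreductase of the prostate STEAP family, rose to 84.5, 85.4 and 78.8 CPM in P3_R1881 libraries, against 0.377, 0.305 and 0.218 CPM in P3_vehicle libraries, a log2 fold change of 8.08 ± 0.13. SLC2A3, a high-affinity glucose transporter, was at 6.95, 5.61 and 6.88 CPM in P3_R1881 libraries and at 0.167, 0.102 and 0.218 CPM in P3_vehicle libraries, 37.7-fold higher. CCDC141 rose by 4.80 ± 0.24, to 10.4, 8.99 and 8.79 CPM in P3_R1881 libraries against 0.251, 0.305 and 0.437 CPM in P3_vehicle libraries. It shares exon sequence on the same strand with TTN, so its count is uncertain, and the same holds, with other partners, for AMACR, OAZ3, PIK3R3, DAB1, CD200 and RP5-1022I14.2. NPPC, the precursor of C-type natriuretic peptide, rose by 4.34 ± 0.51 to between 2.12 and 2.35 CPM. The rest of the 15 largest were the chloride and bicarbonate exchanger SLC26A3, the amino acid transporter SLC38A4, the keratin KRT6B, the transglutaminase TGM2, the T-cell receptor constant segment TRGC2, which prostate epithelial cells are known to transcribe, the pseudogenes UGT2B24P, UGT2B25P and TRIM53AP and the noncoding RNA RP1-288H2.2. Their log2 fold changes ran from 3.80 for RP1-288H2.2 to 6.28 for UGT2B24P. All 15 kept their call when any 1 of the 6 libraries was left out.

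The largest falls were smaller and lay at the edge of detection. DOCK10, a guanine nucleotide exchange factor, had 0.172, 0.290 and 0.392 CPM in P3_R1881 libraries, against 1.42, 1.37 and 0.787 CPM in P3_vehicle libraries, and fell by 2.04 on the log2 scale (SE 0.50). CCDC80, a secreted matrix protein, was at 0.632, 0.580 and 0.727 CPM in P3_R1881 libraries and at 2.89, 1.88 and 1.44 CPM in P3_vehicle libraries (log2 fold change -1.68 ± 0.40). REG4, a secreted lectin of gut epithelium, was at 0.517, 0.628 and 0.783 CPM in P3_R1881 libraries, against 2.13, 1.52 and 2.49 CPM in P3_vehicle libraries (-1.67 ± 0.43). None of these pairs of groups overlapped, which was a condition for ranking among the largest falls. The 15 largest falls among genes of at least 1 CPM in P3_vehicle cells ran from -2.08 for RP11-426D19.2 to -1.42 for ASZ1, a germ-cell protein, and their mean levels in P3_vehicle cells lay at or below 2.54 CPM. Of the 15, 10 lost their call when 1 library was left out, among them GRIK4, a glutamate receptor subunit, which fell by 1.80 with all libraries and had -1.36 without P3_R1881 library 34 (adjusted p = 0.135), and IFI27L2, with -1.56 and, without P3_vehicle library 19, -1.17 (adjusted p = 0.112). DOCK10, CCDC80, REG4, ASZ1 and AIDAP2 kept it.

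A list of 60 genes known to be induced by androgen rose almost as a whole, with 56 members called higher (background 13.0%) and a median log2 fold change of 1.37, against -0.02 over all tested genes. The number was 56 under each omission of 1 library. NDRG1, a stress- and androgen-regulated protein, was at 1020, 892 and 925 CPM in P3_R1881 libraries and at 214, 183 and 200 CPM in P3_vehicle libraries. GNMT, which methylates glycine, rose 9.3-fold to 104, 89.3 and 90.5 CPM in P3_R1881 libraries, against 9.21, 9.85 and 11.4 CPM in P3_vehicle libraries. The 4 members not called were STEAP1 at 0.11, VIPR1 at 0.13, STEAP2 at -0.10 and ARSJ at 0.68 on the log2 scale. Members that rose least included TSC22D3, the glucocorticoid-induced leucine zipper protein, at 0.28, TMEFF2 at 0.33 and KCNN2 at 0.34. The median of the list in EV cells was 2.58.

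Of 10 tested genes known to be repressed by androgen, 9 fell (background 7.96%), with a list median of -0.97. UGT2B17, which glucuronidates androgens for removal, was at 68.4, 75.4 and 72.1 CPM in P3_R1881 libraries and at 161, 170 and 172 CPM in P3_vehicle libraries (log2 fold change -1.22 ± 0.20). Its paralog UGT2B15 was at 20.2, 23 and 22.8 CPM in P3_R1881 libraries, against 43.9, 43.2 and 44.3 CPM in P3_vehicle libraries. The pair share much of their sequence, and the handling of reads with several alignments is not given. OPRK1, the kappa opioid receptor, had 23.3, 22.7 and 19.8 CPM in P3_R1881 libraries, against 50.2, 51.0 and 44.4 CPM in P3_vehicle libraries, and BCHE, butyrylcholinesterase, had 102, 105 and 94.9 CPM in P3_R1881 libraries, against 191, 208 and 184 CPM in P3_vehicle libraries. Thus these repressed genes stood at close to 2-fold lower with hormone, and the groups did not overlap. Their falls in EV cells were several times deeper, -4.88 for UGT2B17, -4.51 for UGT2B15, -4.29 for OPRK1 and -4.32 for BCHE, and the list median there was -4.31. MET, the receptor of hepatocyte growth factor, was the member not called in P3 cells, at -0.42.

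Among 23 tested members of a list of the receptor and prostate lineage factors, 11 rose and 2 fell. GATA2, a pioneer factor that partners the receptor, fell by 0.19, to between 368 and 437 CPM in P3_R1881 libraries, against 448 to 496 CPM in P3_vehicle libraries. SPDEF, an ETS factor of luminal cells, rose to 303, 288 and 312 CPM in P3_R1881 libraries, against 108, 117 and 124 CPM in P3_vehicle libraries. FOXA1 (0.09) and HOXB13 (-0.06) were not called, and without P3_R1881 library 6 only 1 member of the list was lower. Of 30 receptor chaperones and coregulators 5 rose and 3 fell, shares near the 13.0% and 7.96% over all tested genes, and apart from FKBP5 all stayed between -0.20 for NCOA2 and 0.41 for PIAS1. The HSP90 gene HSP90AA1 fell by 0.15, with overlapping libraries, and without P3_vehicle library 19 only 1 member was lower. Of WDR77, PRMT5 and 16 partners in the methylosome and in assembly of Sm proteins, 2 rose, WDR77 and the methylosome adaptor COPRS (0.47 ± 0.079), and 1 fell, GEMIN4 (-0.23). PRMT5 was at -0.01. Without P3_R1881 library 20 the number lower was 3, and 2 without P3_vehicle library 19 or 5. In EV cells 13 of these 18 genes fell, beside 4698 of all 17772 tested genes.

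Most cholesterol genes rose. In the list of cholesterol synthesis and uptake 25 of 32 tested members were higher and 1 was lower (background 13.0% and 7.96%), with a median of 0.50. The number higher was 23 without P3_vehicle library 5, and 2 were lower without P3_vehicle library 19 or P3_R1881 library 6. HMGCS1, which makes HMG-CoA, was at 194, 190 and 164 CPM in P3_R1881 libraries, against 76.8, 91.0 and 75.6 CPM in P3_vehicle libraries. INSIG1, which holds the sterol sensor in the ER, rose by 1.15, the isomerase IDI1 by 0.90 and that sensor, SCAP, by 0.72. The member that fell was ABCA1, the pump that exports cholesterol, which had 1.49, 1.93 and 2.46 CPM in P3_R1881 libraries against 4.56, 3.45 and 3.67 CPM in P3_vehicle libraries (-0.99 ± 0.25). The exporter thus moved against the called members of the rest of the list.

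In the list of fatty acid synthesis, activation and storage 17 of 28 rose and 4 fell (median 0.27, background 13.0% and 7.96%). FASN, the fatty acid synthase and the most abundant member, was at 7580, 6614 and 7064 CPM in P3_R1881 libraries and at 2786, 2854 and 3132 CPM in P3_vehicle libraries (1.28 ± 0.071). ACSL3, which activates fatty acids at lipid droplets, rose by 2.16 ± 0.050, and the elongases ELOVL7 and ELOVL5 by 1.98 and 1.48. The 4 that fell were GPAM (-0.21), ELOVL6 (-0.24), ACACB (-0.28) and DGAT2 (-0.28), of which ACACB is the carboxylase that restrains oxidation and DGAT2 makes triglyceride. The libraries of the 2 groups overlapped for ACACB, and without P3_vehicle library 19 or P3_R1881 library 20 only 2 members were lower. In fatty acid oxidation 8 of 19 rose, led by the carnitine carrier SLC25A20 (0.89), the racemase AMACR (0.88), a prostate cancer marker, and ECI2 (0.75), and 1 fell without P3_vehicle library 5 or P3_R1881 library 20. The mitochondrial trifunctional subunits HADHA (-0.12) and HADHB (-0.06) were not called.

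The secretory pathway rose broadly and by small amounts. Of 41 coat and trafficking genes of the ER-Golgi step (COPI, COPII) 38 rose, with a median of 0.36, and the other 3 were SAR1A (0.13), SEC23A (0.12) and COPG2 (0.08). SEC24D, a cargo adaptor of COPII vesicles, was highest, at 72.2, 70.3 and 73.0 CPM in P3_R1881 libraries against 37.4, 34 and 38.1 CPM in P3_vehicle libraries (0.98 ± 0.064). Of 27 genes of ER translocation and N-glycan transfer 24 rose (median 0.30), from SRP72 at 0.15 to the signal peptidase subunit SEC11C at 1.05. Of 28 genes of the unfolded protein response and ER folding 24 rose (median 0.44). DNAJB9, an ER co-chaperone, was at 37.2, 34.8 and 34 CPM in P3_R1881 libraries, against 13.3, 15.8 and 16.3 CPM in P3_vehicle libraries (1.23 ± 0.094). The sensor ERN1, also called IRE1, rose by 0.96, the chaperone HSPA5 (BiP) by 0.46 and XBP1 by 0.42. In these 3 lists the share called was far above the 13.0% over all genes, and leaving out any 1 library left 37 or 38, 21 to 24 and 22 to 24 members called.

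Of 44 protein glycosylation and nucleotide sugar genes 24 rose and 5 fell (background 13.0% and 7.96%). The chondroitin enzyme CSGALNACT1 stood at 47.5, 43.6 and 46.8 CPM in P3_R1881 libraries and at 5.15, 4.78 and 4.41 CPM in P3_vehicle libraries (3.26 ± 0.099). ST6GALNAC1, which makes the sialyl-Tn antigen, rose by 2.67 ± 0.11, and UAP1 and PGM3, both of UDP-GlcNAc synthesis, by 1.09 and 1.27. GALNT3 (-0.49), the fucosyltransferase FUT8 (-0.36), NANP (-0.34), ST3GAL1 (-0.27) and MGAT5 (-0.17) fell, and 3 fell without P3_vehicle library 33. In the integrated stress response 9 of 24 rose and 5 fell, beside the same background. VLDLR (0.94), ATF3 (0.77) and GDF15 (0.63) rose, whereas the amino acid transporter SLC7A5 (-0.43) and the serine synthesis enzyme PHGDH (-0.28) fell, and the transcription factor ATF4 was at 0.06, not called. Without P3_R1881 library 6 the number lower was 1, and without P3_vehicle library 19 or 33 it was 3. DDIT3, the stress factor CHOP, had 16.3, 14.6 and 15.3 CPM in P3_R1881 libraries and 11, 13.2 and 12.6 CPM in P3_vehicle libraries (0.33 ± 0.12; edgeR adjusted p = 0.0359).

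Cell cycle genes fell together, each by a small amount. Of 39 DNA replication genes 33 fell, with a median of -0.35, and of 40 genes of the mitotic spindle, kinetochore and checkpoint 38 fell, with a median of -0.45 (background 7.96%). TK1, the S-phase thymidine kinase, was at 110, 112 and 128 CPM in P3_R1881 libraries and at 158, 174 and 174 CPM in P3_vehicle libraries (log2 fold change -0.54 ± 0.062). PCNA, the replication clamp, was at 136, 158 and 148 CPM in P3_R1881 libraries, against 173, 194 and 199 CPM in P3_vehicle libraries. PLK1, a mitotic kinase, was at 59.4, 61.4 and 59.0 CPM in P3_R1881 libraries, against 82.5, 88.4 and 90.2 CPM in P3_vehicle libraries (-0.54 ± 0.066), and topoisomerase TOP2A was at 129, 132 and 129 CPM in P3_R1881 libraries, against 181, 183 and 178 CPM in P3_vehicle libraries. Their falls lay between 1.3-fold and 1.5-fold, with no overlap between the groups. The largest in the replication list were the checkpoint mediator CLSPN and the origin factor MCM10, both at -0.56, and in the mitotic list ESPL1, separase, also at -0.56. Members not called included RPA3 (-0.06), POLD1 (-0.15), PRC1 (-0.12) and NUSAP1 (-0.78, below 1.2 CPM in both groups). With 1 library left out, 29 to 33 replication and 36 to 38 mitotic genes were called. In a fit that also held the 12 siRNA libraries, 8 of the replication and 2 of the mitotic genes passed, with medians of -0.38 and -0.48. EV medians were -1.31 for replication and -1.56 for mitosis.

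**Figure D2:**
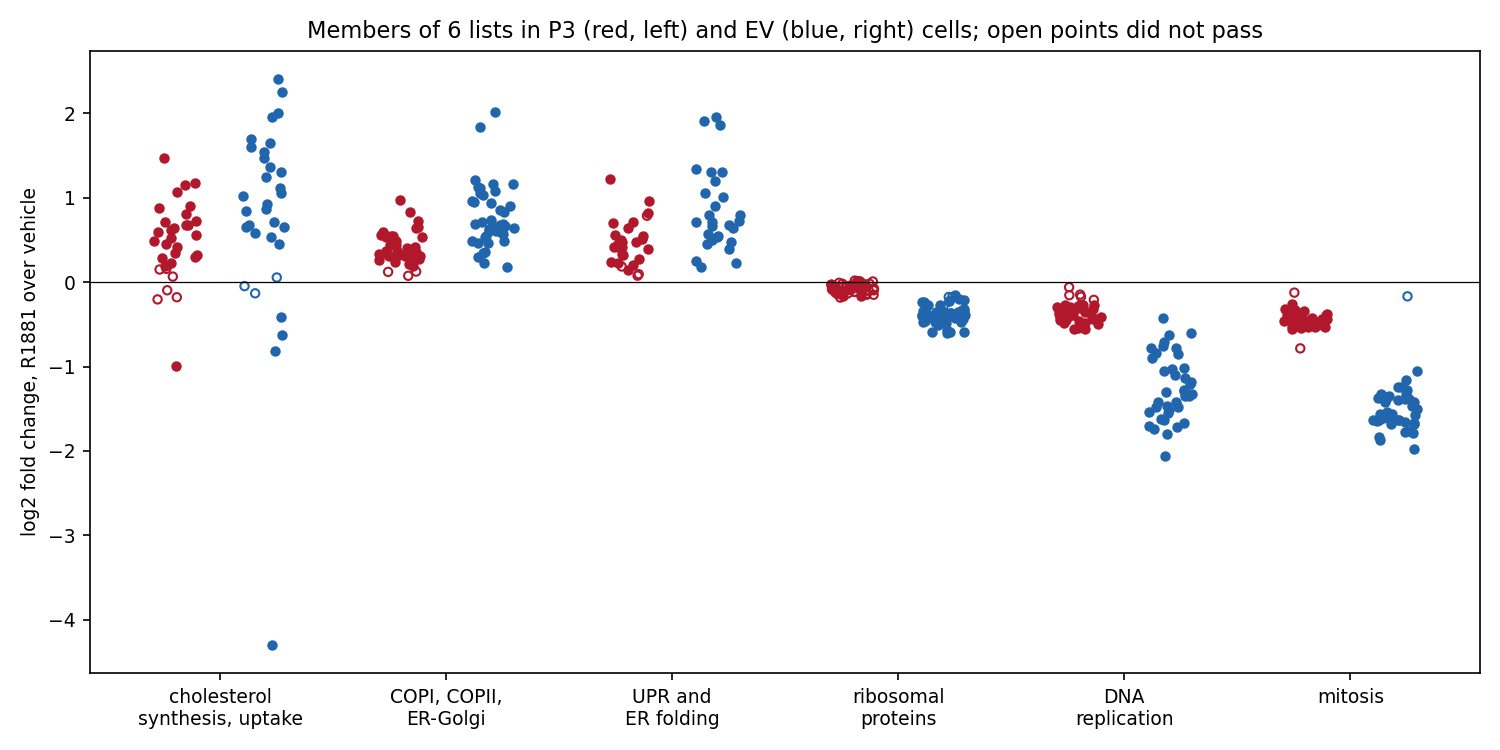
Log2 fold change (R1881 over vehicle) of every tested member of 6 lists, P3 cells left in red and EV cells right in blue. Filled points passed the test and open ones did not. Most cholesterol genes and all trafficking and folding genes lie above 0, replication and mitotic genes below 0, and ribosomal protein genes near 0 in P3 cells, each group nearer to 0 in P3 than in EV cells.

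Regulators of G1 were less uniform. Of 25 tested members 2 rose and 8 fell (background 13.0% and 7.96%). CDKN2B, the inhibitor p15, rose to 12.5, 10.2 and 7.50 CPM in P3_R1881 libraries, against 2.60, 2.54 and 2.62 CPM in P3_vehicle libraries (1.95 ± 0.16), and CDKN1C, the inhibitor p57, rose by 1.15 ± 0.31. E2F1, which drives entry to S phase, fell by 0.45, and E2F8, CCNE2 and RBL1 by 0.57, 0.48 and 0.40. The cyclin CCND1 (-0.06), its kinase CDK4 (-0.12) and the inhibitor CDKN1A (0.08) were not called. Of 25 p53 targets 2 rose and 5 fell, led by SESN1, an antioxidant regulator of mTOR, at 105, 110 and 101 CPM in P3_R1881 libraries against 156, 178 and 160 CPM in P3_vehicle libraries (-0.64 ± 0.060). The death receptor TNFRSF10B rose by 0.79. Without P3_R1881 library 6, 3 p53 targets were lower, and without P3_R1881 library 34 only 1 was higher. BTG2 (-0.47), TP53INP1 (-0.38) and XPC (-0.19) were among those that fell.

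Translation genes were nearly flat, beside the 13.0% that rose and 7.96% that fell over all tested genes. Of 59 cytosolic ribosomal protein genes 2 fell, RPL5 (-0.17) and RPS3 (-0.16), and the list lay between -0.18 and 0.02, with a median of -0.08. The number depended on single libraries. It was 13 without P3_vehicle library 5, 8 without P3_R1881 library 20, 4 without P3_R1881 library 34, and no member passed without P3_vehicle library 19 or P3_R1881 library 6, where edgeR gave RPL5 an adjusted p of 0.0869 and 0.105. At an unadjusted p under 0.05 there were 9. In EV cells 54 of the 59 fell, with a median of -0.39, beside 4698 of all 17772 tested genes. In 40 of the 59 the difference between the arms passed the test (background 11.5% for a more positive P3 response). In ribosome biogenesis 6 of 29 fell, among them MYC, at 165, 158 and 168 CPM in P3_R1881 libraries against 196, 198 and 192 CPM in P3_vehicle libraries (-0.25 ± 0.057), and fibrillarin, FBL (-0.25). The other 4, POLR1B, WDR12, DKC1 and NCL, fell by 0.12 to 0.22 and lost their call when P3_vehicle library 19 or P3_R1881 library 6 was left out, leaving 2 lower and 1 higher. With all 24 libraries in the fit 3 members were lower, and MYC (-0.28, adjusted p = 0.102) was not among them. Of 20 aminoacyl-tRNA synthetases 3 rose, TARS1 (0.30), WARS1 (0.19) and YARS1 (0.17), and without P3_vehicle library 5, P3_R1881 library 20 or P3_R1881 library 34 only TARS1 passed, while 5 passed without P3_vehicle library 19.

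Polyamine genes included some of the strongest metabolic rises. ODC1, ornithine decarboxylase, which begins polyamine synthesis, was at 1476, 1398 and 1373 CPM in P3_R1881 libraries and at 511, 559 and 557 CPM in P3_vehicle libraries (1.38 ± 0.047). SMS, spermine synthase, was at 425, 416 and 411 CPM in P3_R1881 libraries against 105, 105 and 108 CPM in P3_vehicle libraries, and SAT1, which acetylates polyamines for export, was at 478, 441 and 426 CPM in P3_R1881 libraries, against 99.2, 107 and 101 CPM in P3_vehicle libraries. Both stood about 4-fold higher. In all 6 of 14 members rose, with AMD1 (0.77), ARG2 (0.58) and OAZ3 (0.45), of which OAZ3 lost its call without P3_vehicle library 5 (0.34, adjusted p = 0.121) or P3_R1881 library 20. Of 20 genes of methionine, glycine and folate metabolism 2 rose, led by GNMT (3.22), and 3 fell, with TYMS (-0.49) and GLDC (-0.43) the largest falls. Over all tested genes 13.0% rose and 7.96% fell. GLDC lost its call without P3_R1881 library 6 (-0.31, adjusted p = 0.132).

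In glycolysis, glucose transport and hypoxia 11 of 31 rose and 2 fell (background 13.0% and 7.96%). Among all genes between 100 and 1000 CPM 34.3% rose and 9.99% fell, and the list was not matched for abundance. Besides SLC2A3 these were the regulator PFKFB2 (1.03), the transporter SLC2A12 (0.86), hexokinase HK1 (0.84) and VEGFA (0.60), while the core enzymes ENO1 (0.04), LDHA (0.01), GAPDH (-0.10) and PKM (-0.10) were not called. The muscle phosphofructokinase PFKM (-0.22) and EGLN3 (-0.31) fell. Without P3_R1881 library 34 the number higher was 7, and without any of P3_vehicle libraries 19 and 33 and P3_R1881 libraries 6 and 20 only 1 was lower. In the TCA cycle and respiratory chain OGDH (0.33) alone of 35 rose, with 2 higher without P3_vehicle library 19, 2 lower without P3_vehicle library 5 and 1 lower without P3_R1881 library 34. Of the 13 mitochondrially encoded genes none was called by edgeR, 1 had an unadjusted p under 0.05 and DESeq2 called 1, MT-ND6 (0.12). Among ion channels and solute transporters 19 of 28 rose and 4 fell. The magnesium transporter SLC41A1 was at 367, 346 and 344 CPM in P3_R1881 libraries and at 77.5, 77.9 and 75.6 CPM in P3_vehicle libraries (2.19 ± 0.052), and the zinc importer SLC39A10 rose by 1.10. ATP1B1, a subunit of the sodium pump, fell by 0.69. In autophagy and lysosome 9 of 28 rose, led by WIPI1, which acts at the forming autophagosome (1.68 ± 0.12).

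In IGF and insulin signalling 6 of 19 rose and 3 fell. IGF1R, the receptor of insulin-like growth factor, was at 155, 139 and 147 CPM in P3_R1881 libraries and at 49.4, 39.0 and 44.2 CPM in P3_vehicle libraries (1.73 ± 0.064), and the phosphatase INPP4B rose by 1.37, while the regulatory subunits PIK3R1 and PIK3R3 of PI3 kinase fell by 0.37 and 0.48. Of 21 genes of MAPK, TGF-beta and BMP feedback 7 rose and 1, BAMBI (-0.29), fell, and PMEPA1, an inhibitor of TGF-beta signalling, led with 1.88. Without P3_R1881 library 20, 4 rose. SPRY4 (0.61) lost its call there and without any of P3_vehicle libraries 19 and 33 and P3_R1881 library 6 (0.51 to 0.57, adjusted p between 0.0646 and 0.0961). Among 23 genes of the immediate early and heat shock response 8 were higher, led by the nuclear receptor NR4A1 (1.34 ± 0.091), and 1, KLF10 (-0.27), fell. Without P3_vehicle library 5 or P3_R1881 library 34, 5 rose, and KLF10, whose libraries overlapped between the groups, was not called without P3_vehicle library 19 or 33 or P3_R1881 library 6. Of 38 interferon response genes 4 rose and 2 fell, smaller shares than the 13.0% and 7.96% over all tested genes. B2M, the light chain of MHC class I, was at 272, 289 and 264 CPM in P3_R1881 libraries and at 119, 146 and 132 CPM in P3_vehicle libraries (1.06 ± 0.057), MX1 rose by 0.58, and OAS3 (-0.44) and RSAD2 (-0.62) fell, RSAD2 losing its call without any one of 5 of the 6 libraries (edgeR adjusted p between 0.0744 and 0.118). Without P3_vehicle library 5, 4 members were lower.

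In luminal keratins and junction genes 10 of 17 were higher and 1, OCLN (-0.36), was lower (background 13.0% and 7.96%). KRT8 was at 2132, 2049 and 2061 CPM in P3_R1881 libraries and at 418, 476 and 458 CPM in P3_vehicle libraries (2.21 ± 0.053), and its partner KRT18 rose by 1.66. The gene of E-cadherin, CDH1, was at 0.09, not called. Of the 8 basal markers KRT5, KRT15 and TP63 were under 0.1 CPM in both groups and none of the 5 tested members was called by edgeR or DESeq2 (1 at an unadjusted p under 0.05). The markers summed to 75 to 86.8 CPM in P3_R1881 libraries and 87.8 to 90.6 CPM in P3_vehicle libraries. Of 16 fibroblast and mesenchymal markers COL1A2, DCN and PDGFRA had no count in the 6 libraries. The list summed to 737 to 787 CPM in P3_R1881 libraries and 1110.0 to 1220.0 CPM in P3_vehicle libraries, and 3 of 11 tested members fell. FN1, fibronectin, was at 545, 535 and 560 CPM in P3_R1881 libraries and at 855, 819 and 806 CPM in P3_vehicle libraries, and the collagens COL5A2 and COL3A1 had log2 fold changes of -1.35 and -0.83, the second not called without P3_R1881 library 20 (adjusted p = 0.0568). ACTA2, smooth muscle actin, rose by 3.38. Of 12 neuroendocrine markers CHGA, INSM1 and NEUROD1 had no count in the 6 libraries, NTS (-1.16) and DDC (-0.98) fell, 1 member was higher without P3_R1881 library 20, and the list's summed level was highest at 130.0 CPM in P3_R1881 libraries and lowest at 206 CPM in P3_vehicle libraries. Immune and endothelial markers, with CD3E, PECAM1 and CDH5 at no count, summed to 11.8 to 13.2 CPM in P3_R1881 libraries and 14.9 to 18.1 CPM in P3_vehicle libraries, almost all of it VWF, which was not called (-0.27). The part of other cell types in these results was not tested.

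**Figure D3:**
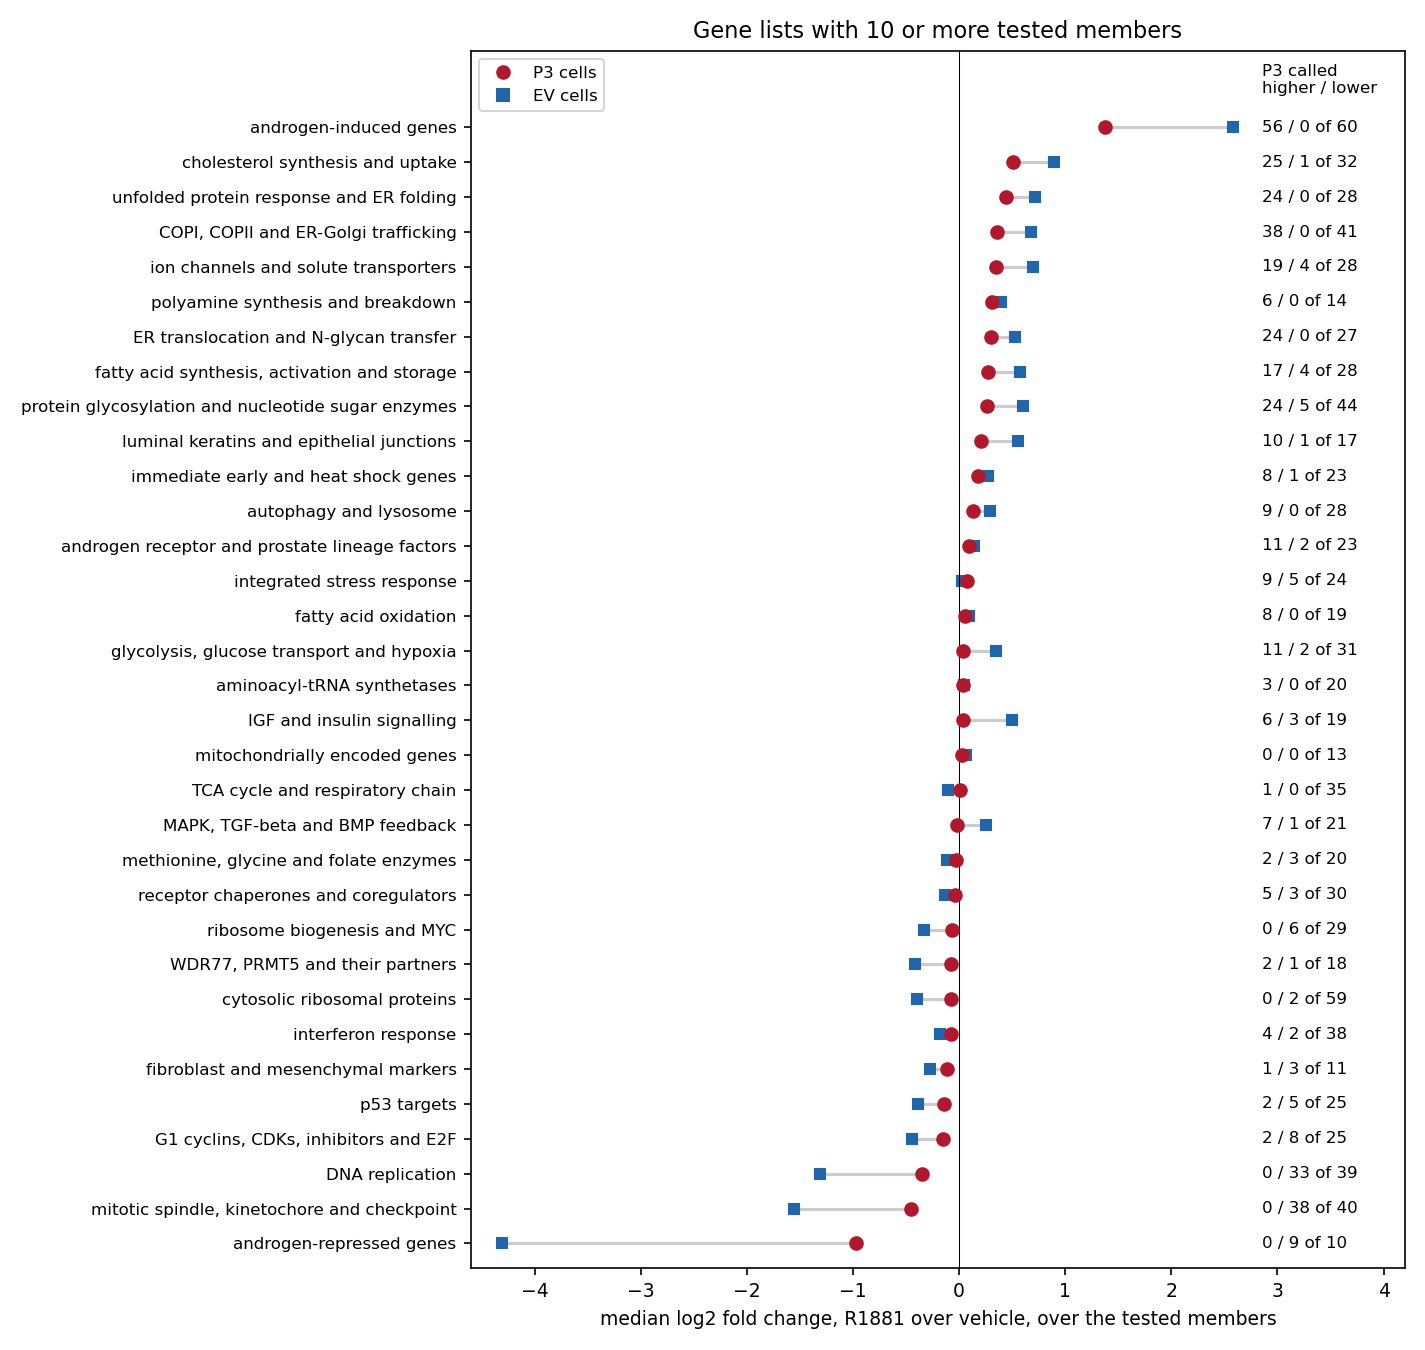
Median log2 fold change (R1881 over vehicle) over the tested members of each gene list with 10 or more of them, P3 cells as red circles and EV cells as blue squares, with the number called higher and lower in P3 cells at the right. Androgen-induced genes have the highest P3 median, 1.37, and androgen-repressed genes the lowest, -0.97. In most lists the P3 median lies between 0 and the EV median.

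Where a gene stood in abundance went with whether it was called. Of genes between 100 and 1000 CPM 34.3% rose and 9.99% fell, of those between 10 and 100 CPM 16.1% rose and 11.4% fell, and of those below 1 CPM 1.98% rose and 1.53% fell. The median SE of a log2 fold change was 0.055, 0.081 and 0.51 in these classes, so a small change in a rare transcript was not detectable at this depth. Among protein-coding genes 16.6% rose and 9.56% fell. Among antisense genes, whose counts cannot be separated from their partners without the strand setting, 3.4% rose and 3.54% fell, and among lincRNAs 2.9% rose and 4.8% fell.

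Set beside EV cells, which have vehicle libraries of their own, the P3 response was in most genes the smaller one. In EV cells 9130 genes (51.4%) were called, 4432 higher and 4698 lower. Of the 2312 genes that rose in P3 cells 2250 (97.3%, and 50.8% of those that rose in EV cells) also rose in EV cells, and of the 1414 that fell 1335 (94.4%, and 28.4% of those that fell in EV cells) also fell there. The change was the smaller one in P3 cells for 2179 of the 2312 and for 1297 of the 1414. The difference between the arms, tested as an interaction, was called for 4013 genes, 22.6% of those tested, with 2042 (11.5%) more positive and 1971 (11.1%) more negative in P3 cells. For 1372 of the genes that rose and 951 of those that fell in P3 cells the P3 response was smaller and the difference passed. For 6 genes called in P3 cells it passed with a larger or opposite response there. It also passed for genes not called in P3 cells, whose direction there was not counted. Of these, 584 were called higher and 1080 lower in EV cells. Among genes called in neither arm, 9 were more positive and 11 more negative in P3 cells. Among the 435 genes called by at least 2-fold in P3 cells, 252 had a smaller response than in EV cells that passed the test and for 183 the difference was not called.

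**Figure D4:**
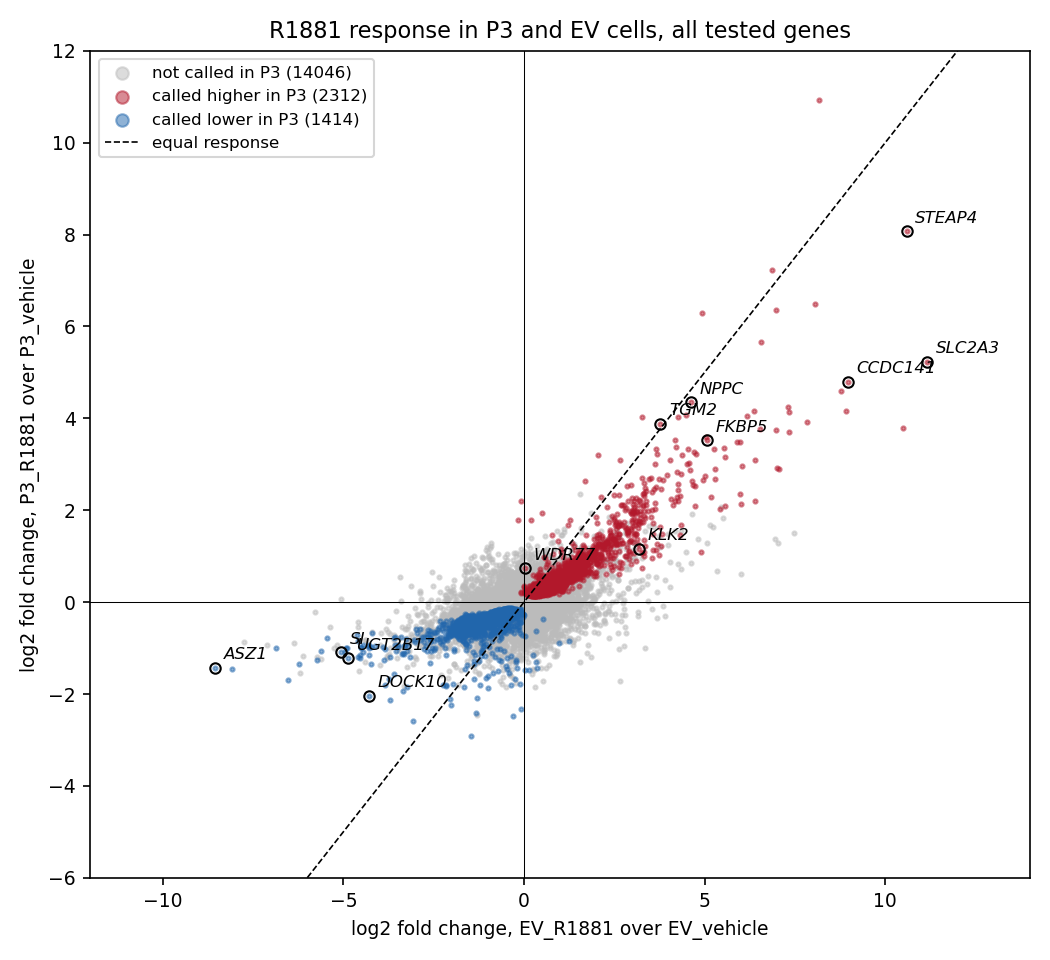
Log2 fold change with R1881 in P3 cells (vertical) against EV cells (horizontal) for all 17772 tested genes, with the 2312 called higher in P3 cells in red, the 1414 called lower in blue and the rest in grey. The dashed line marks equal responses. Most called genes lie between that line and the horizontal axis, SLC2A3 and CCDC141 lie far below it, and NPPC and TGM2 lie near it.

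Genes chosen in neither arm gave the size of this. In siCtrl cells 1176 of the tested genes rose by at least 2-fold and 1707 fell by at least 2-fold. One library behind this choice, siCtrl_vehicle library 35, stood apart, with 8.4% of its counts on mitochondrially encoded genes and 0.00564% on KLK3, against 5.39 and 5.85% and 0.0224 and 0.0227% in the other 2 siCtrl_vehicle libraries. Chosen without it the genes numbered 1164 and 1698, with medians of 0.67 in P3 and 1.46 in EV cells for those higher and of -0.43 in P3 and -1.15 in EV cells for those lower. For the 1176 the median log2 fold change was 0.66 in P3 cells, 1.44 in EV cells and 1.67 in siCtrl cells, the value by which they were chosen, and 845 (71.9%) rose in P3 cells against 1074 (91.3%) in EV cells. For the 1707 the medians were -0.43 in P3 cells, -1.08 in EV cells and -1.57 in siCtrl cells, and 588 (34.4%) fell in P3 cells against 1196 (70.1%) in EV cells. The median ratio of the P3 to the EV log2 fold change was 0.518 among the genes that rose (quartiles 0.387 and 0.611) and 0.335 among those that fell (0.208 and 0.532). The gap between the arms lay mainly in the hormone-treated cells. On the log2 scale of mean CPM plus 0.5, the 1176 genes had a median difference of -0.54 between P3_R1881 and EV_R1881 cells and of 0.11 between P3_vehicle and EV_vehicle cells. For the 1707 genes the medians were 0.54 with hormone and -0.02 with vehicle, and over all tested genes 0.02 with hormone and -0.02 with vehicle.

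**Figure D5:**
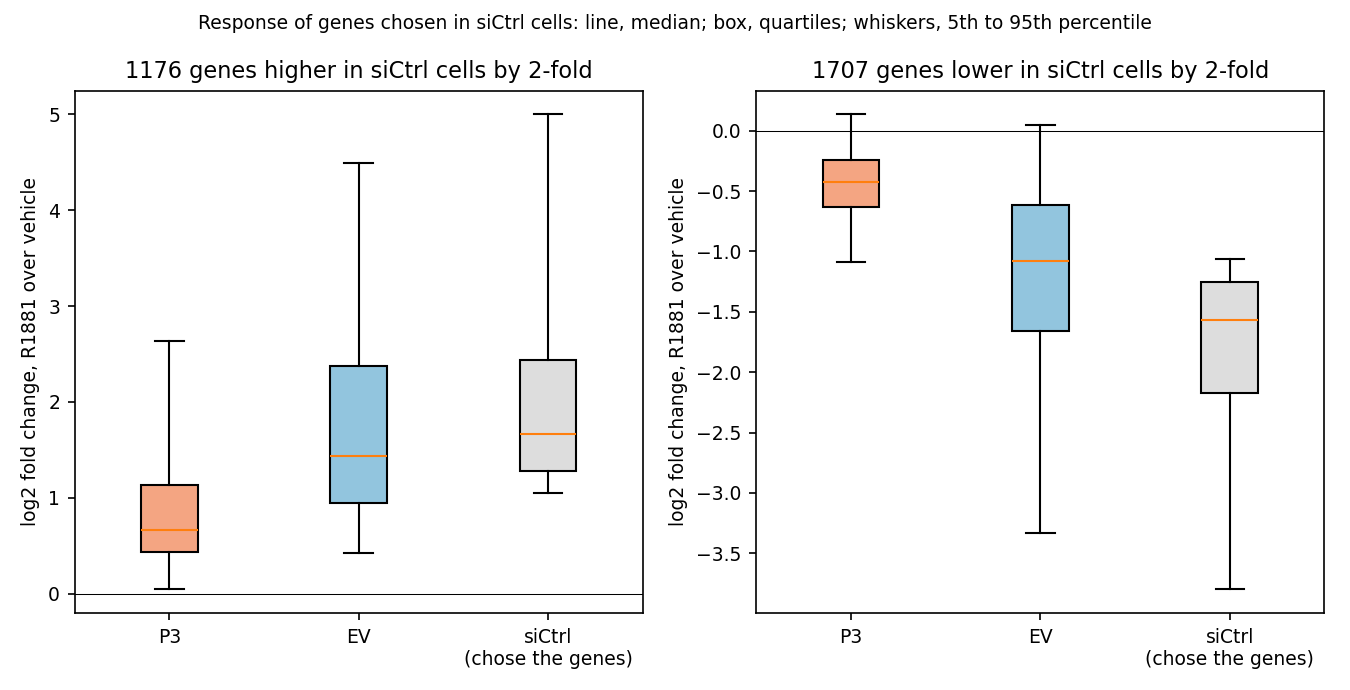
Log2 fold change (R1881 over vehicle) in P3, EV and siCtrl cells of the 1176 genes higher (left) and the 1707 genes lower (right) by at least 2-fold in siCtrl cells, which chose them. Lines are medians, boxes quartiles and whiskers the 5th and 95th percentiles over genes. P3 medians are 0.66 and -0.43, EV medians 1.44 and -1.08.

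The lists did not all keep the same proportion. The median log2 fold change was 0.50 in P3 against 0.90 in EV cells for cholesterol genes, 0.30 in P3 against 0.53 in EV cells for ER translocation, 0.36 in P3 against 0.68 in EV cells for trafficking and 0.44 in P3 against 0.71 in EV cells for ER folding. It was -0.35 in P3 against -1.31 in EV cells for replication, -0.45 in P3 against -1.56 in EV cells for mitosis and -0.97 in P3 against -4.31 in EV cells for androgen-repressed genes. These proportions were not tested against each other. The levels of the last 3 lists in P3_R1881 cells had medians of 0.84, 1.0 and 2.32 above EV_R1881 cells (log2 of mean CPM plus 0.5), against -0.09, -0.06 and -0.37 between P3_vehicle and EV_vehicle cells. The androgen-induced list differed on both sides, with medians of -0.85 with hormone and 0.25 without.

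The genes whose P3 response lay furthest below that of EV cells were again near-silent ones. SLC2A3 reached 6.95, 5.61 and 6.88 CPM in P3_R1881 cells against 14.9, 14.5 and 14.3 CPM in EV_R1881 cells, and had 0.102 to 0.218 CPM in P3_vehicle libraries but no count in EV_vehicle libraries. AKAP12, a scaffold of protein kinase A, was the best measured of the 10. It was at 17.1 to 23.9 CPM in P3_R1881 libraries and 4.28 to 5.40 CPM in P3_vehicle libraries, and at 43.4 to 59.5 CPM in EV_R1881 libraries and 0.799 to 1.37 CPM in EV_vehicle libraries, so in P3 cells it was both lower with hormone and higher without it than in EV cells (log2 fold changes 2.10 in P3 and 5.57 in EV cells). The other 8 were RP1-288H2.2, SLC26A3, RP11-65J21.4, CCDC141, CACNG4, SLC38A4, GALNT12 and AQP4-AS1. GALNT12 lost its P3 call without P3_R1881 library 20 (adjusted p = 0.0665), and AQP4-AS1, which rose by 1.10, lost it without any of 4 libraries (down to 0.78 without P3_vehicle library 5). AQP4-AS1 also lost it with DESeq2 (adjusted p = 0.0593). In edgeR it did not pass with no filter (0.0617), the 6 P3 libraries alone (0.0661) or all 24 libraries (0.06). At the other end were genes nearly shut off in EV cells and only lowered in P3 cells. SI, sucrase-isomaltase, was at 10.4, 10.1 and 7.22 CPM in P3_R1881 libraries and 22.4, 20.3 and 16.2 CPM in P3_vehicle libraries, and at 0.264 to 1.28 CPM in EV_R1881 libraries and 23.7 to 26.6 CPM in EV_vehicle libraries. CTNNA3, an alpha-catenin, behaved likewise, with log2 fold changes of -1.0 ± 0.15 in P3 cells and -4.93 in EV cells. ASZ1, AC009312.1, RP11-231E6.1, LINC02672, DAB1, CD200, GRIK1 and ROR2 made up the 10, of which AC009312.1, LINC02672, DAB1, CD200, GRIK1 and ROR2 lost the P3 call without 1 library.

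Few of the genes called in P3 cells went against this pattern. Besides WDR77, the difference passed with a larger P3 response for EVI5L and LRRC6, which were picked out after their values were seen, and with opposite signs for RP5-1022I14.2, TAS2R4 and KCNQ1OT1. TAS2R4, a bitter taste receptor, was at 1.40 to 2.07 CPM in P3_R1881 libraries and 2.18 to 3.60 CPM in P3_vehicle libraries, and at 0.987 to 1.58 CPM in EV_R1881 libraries and 0.383 to 0.694 CPM in EV_vehicle libraries. KCNQ1OT1, the antisense transcript of the KCNQ1 locus, was at 16.7 to 18.7 CPM in P3_R1881 libraries and 18.5 to 27.8 CPM in P3_vehicle libraries, with log2 fold changes of -0.38 in P3 cells and 0.52 in EV cells. The highest value in each of these vehicle groups was that of library 5. Apart from WDR77, whose call was kept in every omission, the P3 calls of these genes rested on several libraries. TAS2R4 (-0.68, adjusted p = 0.168), KCNQ1OT1 (-0.19, adjusted p = 0.331), RP5-1022I14.2 (-0.74, adjusted p = 0.163), EVI5L (0.13, adjusted p = 0.222) and LRRC6 (-0.55, adjusted p = 0.131) did not pass without library 5, and none of the 5 passed without P3_R1881 library 20 or 34. TAS2R4, RP5-1022I14.2 and EVI5L were also lost without P3_vehicle library 33, LRRC6 without P3_vehicle library 19, and LRRC6 and EVI5L without P3_R1881 library 6. DESeq2 called EVI5L and not the other 4, and with all 24 libraries KCNQ1OT1 (adjusted p = 0.218) and EVI5L (adjusted p = 0.085) did not pass. The genes called by at least 2-fold in P3 cells whose response was nearest to that in EV cells were low as well. They included TGM2, with log2 fold changes of 3.89 ± 0.58 in P3 cells and 3.78 in EV cells, and 7 of these 10 lost the P3 call without 1 library.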

How the data were processed

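RNA from whole wells of LNCaP cells was sequenced as poly(A) libraries. The deposited table holds raw counts per gene, made by the authors with bcl2fastq 2.20, STAR 2.7.9a, featureCounts of Subread 1.6.4 and the build GRCh38.p7, per the submitters' processing notes. The sources used here give neither the strand setting nor the handling of reads with several alignments. Columns were matched to samples by the sample number in their names. The 3 columns of P3_R1881 also carry the word siRNA, while the sample titles name the P3 construct.

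Counts of the 12 EV and P3 libraries were scaled with TMM, filtered with filterByExpr (17772 of 60649 features kept) and fitted with edgeR 4.0.16 (limma 3.58.1, R 4.3.3) as robust quasi-likelihood models with 4 groups. Contrasts were the P3 response, the EV response and their difference, adjusted by Benjamini-Hochberg over all tested genes at 0.05. Each SE was back-calculated from the log2 fold change and the F statistic of its contrast. For sparse genes such values do not combine across contrasts, as in SLC2A3 with 0.29 in P3 cells, 0.44 in EV cells and 1.135 for the difference. The siCtrl libraries were fitted apart to choose genes, in a fit of the 12 siRNA libraries that also held the cells with WDR77 siRNA. The script was tested on simulated data. DESeq2 1.42.0, other scaling, no filter, other library sets, a replicate block and the omission of each library were the alternatives. Sequence was not read from the libraries. Totals of 17115227 to 21720438 counts set a floor of 3 counts at 0.138 to 0.175 CPM per library; without molecular identifiers floors cover counting error only.

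Named genes were the 4 standard targets and WDR77, the 15 largest called changes each way and the 10 largest differences between the arms each way, if the higher group averaged 1 CPM or more and the groups did not overlap, the genes of opposite sign, the 10 nearest to equal, and up to 6 members per list by adjusted p. Others are named to account for a list or were picked after their values were seen. Some genes that the rule names are not reported here. The members and lists were chosen with earlier results of these data known. P-values measure the spread between 3 libraries per group. Symbols and gene positions are those of GENCODE 29.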

Additional observations from a re-analysis of the deposited data

Results flagged for a closer look

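Each value below is the P3 response minus the EV response (log2), tested as an interaction with edgeR, and each result is listed because that difference passed the test. In all 4013 genes did so. No explanation was tested.

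The standard targets rose less in P3 than in EV cells, by -1.20 for KLK3, -2.03 for KLK2, -1.53 for TMPRSS2 and -1.54 for FKBP5, and WDR77 alone of the 5 responded more, by 0.71. Mean levels of the standard targets were also higher in P3_vehicle than in EV_vehicle cells. With all 24 libraries in 1 fit the difference of KLK3 was -1.21 and did not pass (adjusted p = 0.0719). Among rises the differences were -6.68 for RP1-288H2.2, -5.92 for SLC2A3, -4.76 for SLC26A3, -4.19 for RP11-65J21.4, -4.17 for CCDC141, -4.17 for CACNG4, -3.91 for SLC38A4, -3.87 for GALNT12, -3.80 for AQP4-AS1 and -3.48 for AKAP12. The fitted values of RP1-288H2.2, SLC2A3 and SLC26A3 depend on a prior count, since EV_vehicle libraries held no count, and the differences of SLC26A3 (-3.30, adjusted p = 0.266) and SLC38A4 (-2.42, adjusted p = 0.194) did not pass without P3_vehicle library 33, nor did that of GALNT12 without P3_vehicle library 5 (-3.43, adjusted p = 0.0544).

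Among falls the differences were 7.12 for ASZ1, 6.61 for AC009312.1, 4.89 for RP11-231E6.1, 4.67 for LINC02672, 4.54 for DAB1, 4.46 for CD200, 3.97 for SI, 3.93 for CTNNA3, 3.92 for GRIK1 and 3.88 for ROR2. ASZ1 and AC009312.1 had no count in EV_R1881 libraries, so their fitted values depend on a prior count too.

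Opposite signs gave -2.11 for TAS2R4, -1.86 for RP5-1022I14.2 and -0.90 for KCNQ1OT1. LRRC6 gave -0.95, and 0.27 was the value for EVI5L. The difference of LRRC6 did not pass without P3_vehicle library 5 (adjusted p = 0.054). That of EVI5L was lost without any of 5 of the 6 P3 libraries, all but P3_vehicle library 19 (adjusted p between 0.0652 and 0.135), and with RLE scaling (0.0678), DESeq2 (0.0979) and all 24 libraries (0.0553).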

How the results depend on the processing

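No gene called in P3 cells and still tested changed direction under any alternative scaling, filter, tool, set of libraries or block. The number called, 3726 with all choices as reported, was 3474 with DESeq2, 3761 with RLE scaling, 3384 with no filter, 3720 with the 6 P3 libraries alone and 3041 with all 24 libraries in the fit. Leaving out 1 of the 6 libraries gave between 2956 and 3353, with 1760 to 2230 higher and 1053 to 1372 lower, and between 3538 and 3866 called for the difference between the arms. The number lower by at least 2-fold was the least stable. It was 97, but 58 with DESeq2, where the cause was not tested, and 34 at an adjusted p under 0.01, where 813 against 1414 genes were lower in all; the stricter threshold keeps fewer by construction. The P3 medians of the genes chosen in siCtrl cells stayed between 0.655 and 0.685 and between -0.456 and -0.387 in these omissions and in those of 1 siCtrl library, which were added after seeing the data. The fit of all 24 libraries called none of TK1, MCM10, TOP2A, PLK1, E2F1, MYC, TYMS, SPRY4, GDF15, OAS3, RSAD2, WARS1 and YARS1 in P3 cells. Among the lists it gave 3 lower for the integrated stress response, 1 higher for aminoacyl-tRNA synthetases, 1 lower for methionine, glycine and folate genes, and 5 higher for immediate early and heat shock genes.

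The sample numbers run in 3 stretches, each holding every group once, and a replicate block by stretch called 4291 genes, 3723 of the 3726 among them. Deviations of P3_R1881 and P3_vehicle libraries from their group means correlated at 0.114, 0.118 and 0.0907 within a stretch and below 0 between stretches. Each library thus correlated best with its own stretch. Deviations from a mean of 3 libraries sum to 0, so values above 0 within a stretch press those between stretches below 0. The correlations are a hint from the data only, and the pairing was not adopted because the labels do not give it. Depth limits the low genes, where the median SE below 1 CPM was 0.514, against 0.0546 from 100 to 1000 CPM.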
